A study of Mus musculus with 4 samples.

Results

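S100 proteins are small calcium-binding proteins of vertebrates, each built around a pair of EF-hand loops. Most of them form dimers that open on binding calcium and then dock onto annexins, cytoskeletal proteins or enzymes inside the cell. Some, above all the S100a8 and S100a9 complex calprotectin, are also released and act on Toll-like and scavenger receptors of neighbouring cells. In the liver they are best known from infiltrating myeloid cells, bile duct cells and activated fibroblasts.

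The 10 S100 genes described here (S100a1, S100a4, S100a6, S100a8, S100a9, S100a10, S100a11, S100a13, S100a16 and S100g) were selected by symbol from 22180 genes tested. For each gene the array row that named it alone was taken, and each of the 10 had 1 such row. The samples were livers of wild-type male C57BL/6J mice that received, from 6 weeks of age and for 20 weeks, either the MCD diet, which lacks methionine and choline (2 arrays), or a normal diet (2 arrays). The MCD diet is a widely used mouse model of fatty liver with inflammation, and the labels do not say whether the normal diet matched it in other ingredients. They also do not say whether each array held RNA of 1 animal, and the spread that each p-value rests on may therefore be technical.

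Values are the deposited signals, read as log2, on which a difference of 1 is a 2-fold change. Array medians lay between 2.57 and 2.65 and the brightest rows between 12.07 and 12.13, and signal over background was not analysed. Alb, the albumin gene that defines hepatocytes, gave 11.99 and 11.93 on the MCD diet arrays and 12.04 and 11.96 on the normal diet arrays. These values lie near those of the brightest rows, and saturation was not tested. Since these are whole livers, a change in the number of cells of a type and a change in RNA per cell cannot be told apart.

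Within the S100 family, S100a11, S100a6 and S100g were higher in MCD diet livers, S100a1 and S100a13 were lower, and the other 5 did not pass the test. Thus 3 of 10 rose and 2 of 10 fell at a limma adjusted p under 0.05, where 6.37% of all genes tested rose and 3.62% fell (9.98% together). For 9 of the 10, S100a16 being the exception, the MCD diet arrays lay wholly above (6 genes) or wholly below (3 genes) the normal diet arrays, as they did for 54.2% of all genes (25.0% above, 29.2% below). The median difference of the 10, MCD diet minus normal diet, was 0.60, against -0.03 over all genes. The number that rose was 1 when normal diet replicate 2 was left out and 4 when MCD diet replicate 2 was, and the number that fell was 1 whichever array was left out.

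**Figure D1:**
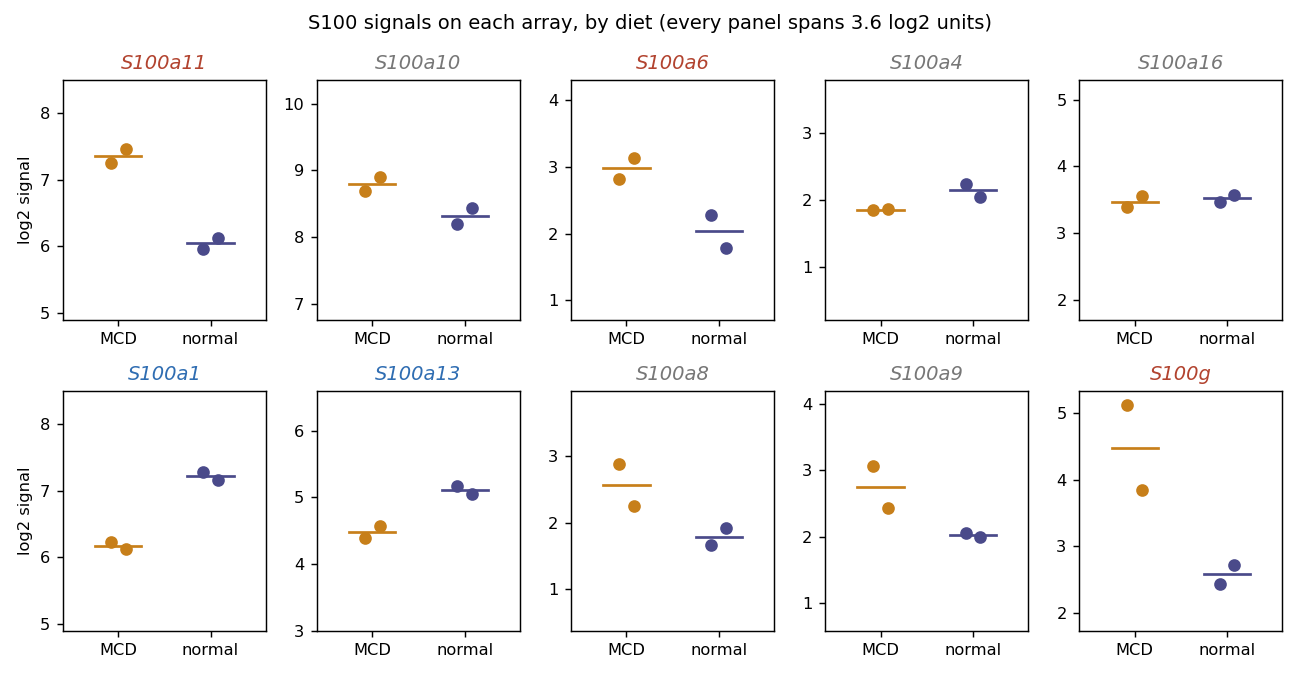
Each panel shows 1 S100 gene, with the log2 signal of every array as a point (MCD diet left, normal diet right) and the mean of each diet as a line. Gene names are red where the gene was called higher in MCD diet livers, blue where lower and grey where not called. S100a11 and S100a1 show wide gaps between tight pairs, whereas the MCD diet arrays of S100g lie far apart, at 5.12 and 3.84.

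S100a11, which binds annexin A1 and serves membrane repair and growth control, showed the clearest rise. Its log2 signal was 7.25 and 7.46 on the MCD diet arrays, against 5.96 and 6.13 on the normal diet arrays. Both MCD diet arrays were high, and the lower of them stood well above the brighter normal diet array. The difference was 1.31 ± 0.14 (± gives the standard error of a log2 difference here and below, with n = 2 arrays per diet), a 2.47-fold higher level (limma adjusted p = 0.00410). The call held in all 12 alternative settings, in which the difference ranged between 1.20 and 1.41. Besides the inferred log base, the size is uncertain because the mouse genome holds a processed copy, S100a11-ps, whose own row gave 6.68 and 6.50 in MCD diet livers and 4.99 and 4.57 in normal diet livers. That row differed by 1.81 ± 0.17 (limma adjusted p = 0.00304), and signal shared between the copies was not tested. A dim row that names S100a11-ps together with another gene showed no rise. It gave 2.24 and 2.38 in MCD diet livers and 2.48 and 2.38 in normal diet livers. S100a11-ps was chosen after its values were seen.

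Promoter windows from 250 bases before to 50 bases after the annotated start were matched by symbol for 9 of the 10 genes in RefSeq (GRCm38.p6). Each window was searched on both strands for 4 motifs. These were the TATA box TATAAA, the GC box GGGCGG, the CCAAT box CCAAT and the AP-1 site TGANTCA. The window of S100a11 is shown because it is the only one of the 9 genes with 2 AP-1 matches, which stand in capitals together with 3 GC boxes (chr3:93520246-93520545, GRCm38.p6, plus strand).

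S100a11: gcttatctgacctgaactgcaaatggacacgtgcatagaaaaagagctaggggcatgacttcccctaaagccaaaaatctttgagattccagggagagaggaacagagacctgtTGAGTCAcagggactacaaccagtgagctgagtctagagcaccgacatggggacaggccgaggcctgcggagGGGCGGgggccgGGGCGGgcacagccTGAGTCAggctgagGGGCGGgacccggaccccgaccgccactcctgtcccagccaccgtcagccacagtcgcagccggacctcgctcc

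The AP-1 letters begin 136 and 38 bases before the annotated start of S100a11, and the GC boxes begin 64, 52 and 24 bases before it. None of these matches overlap. Over all 32851 windows of this length in the RefSeq table, 7.81% hold an AP-1 match and 35.7% a GC box. Among the 9 S100 genes, S100a11 and 1 of the 2 windows of S100a16 hold an AP-1 match, although S100a16 did not pass the test. Such matches describe letters, not binding.

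S100a10, also called p11, is the subunit that pairs with annexin A2 at the plasma membrane and holds plasminogen and its activator there. It lies next to S100a11 on chromosome 3. Its log2 signal was 8.69 and 8.90 in MCD diet livers, against 8.19 and 8.44 in normal diet livers. The groups did not overlap, but the distance between them was near the spread within each. The difference of 0.48 ± 0.15 (unadjusted 95% interval 0.11 to 0.84) did not pass (limma adjusted p = 0.110), and it passed in 0 of 12 alternative settings, with adjusted p between 0.0707 and 0.347.

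S100a6, or calcyclin, binds the ubiquitin ligase adaptor Cacybp and is abundant in fibroblasts and epithelia. Its signal was dim, at 2.82 and 3.14 on the MCD diet arrays and 2.28 and 1.79 on the normal diet arrays. Both MCD diet arrays were above both normal diet arrays. The difference was 0.94 ± 0.20, or 1.92-fold (limma adjusted p = 0.0406). The call was lost when all rows of the table were tested (adjusted p = 0.0592), without MCD diet replicate 1 (0.0810), without MCD diet replicate 2 (0.146) and without normal diet replicate 2 (0.140). The promoter window of S100a6 is given as that of a called gene without TATA box, GC box or AP-1 match. Its capitals mark a CCAAT box read on the opposite strand, 228 bases before the start (chr3:90612644-90612943, GRCm38.p6, plus strand).

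S100a6: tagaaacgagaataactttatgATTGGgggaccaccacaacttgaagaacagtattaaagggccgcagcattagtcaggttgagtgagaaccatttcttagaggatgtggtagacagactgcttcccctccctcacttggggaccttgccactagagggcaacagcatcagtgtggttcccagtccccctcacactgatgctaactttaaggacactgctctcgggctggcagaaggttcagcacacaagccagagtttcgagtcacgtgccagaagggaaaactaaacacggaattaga

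CCAAT boxes occur in 37.4% of all windows, and S100a6 was the only one of the 9 genes to hold one.

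S100a1 and S100a13, which lie head to head on chromosome 3, both fell. S100a1 modulates calcium cycling through SERCA pumps and ryanodine receptors in heart muscle, and S100a13 takes part in the release of FGF1 and interleukin 1 alpha, proteins that lack a signal peptide. S100a1 gave log2 signals of 6.22 and 6.12 in MCD diet livers, against 7.29 and 7.15 in normal diet livers. The arrays of each diet lay close together and far from the other diet. The difference was -1.05 ± 0.13, a 2.07-fold lower level (limma adjusted p = 0.00579), and it was called in 12 of 12 alternative settings.

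S100a13 gave 4.40 and 4.57 in MCD diet livers, against 5.17 and 5.06 in normal diet livers. Both MCD diet arrays were lower than either normal diet array. It fell by 0.63 ± 0.13 on the log2 scale, 1.55-fold lower (limma adjusted p = 0.0352). This call was lost whichever array was left out (adjusted p 0.0686 to 0.151) and with an intensity trend in the moderation (adjusted p = 0.0511).

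The annotated starts of these genes lie 105 bases apart on opposite strands, with the S100a1 start on the lower-numbered side, and transcription runs away from the interval between them on both sides. The stretch that both windows share is printed once, on the plus strand, which S100a13 reads left to right and S100a1 in the opposite sense (chr3:90514281-90514484, GRCm38.p6).

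S100a1 and S100a13, shared: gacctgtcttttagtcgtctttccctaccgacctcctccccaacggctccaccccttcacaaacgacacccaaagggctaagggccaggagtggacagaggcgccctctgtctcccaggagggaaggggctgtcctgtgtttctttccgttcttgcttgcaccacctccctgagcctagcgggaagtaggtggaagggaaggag

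This stretch of 204 bases had a GC content of 59.3%. It has no capitals, because these letters hold no match to any of the 4 motifs. Gene pairs were counted where windows on opposite strands overlapped and the plus-strand window began at the lower-numbered position. Other pairs with overlapping windows were not counted. In 565 counted pairs both genes were tested. Of these, 3 pairs had both genes called lower (0.531%), the S100a1 and S100a13 pair among them, and 1 pair had both called higher.

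**Figure D2:**
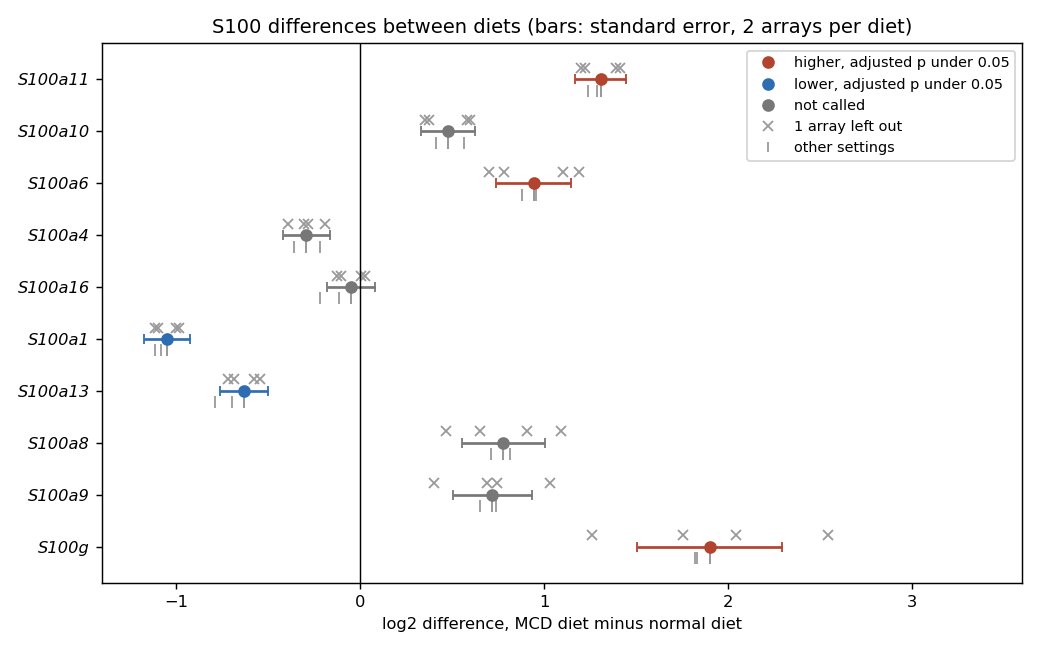
For each of the 10 S100 genes, the large point is the log2 difference, MCD diet minus normal diet, with its standard error as a bar. The crosses above it give the values with 1 array left out and the ticks below it those under the other settings. S100a11 and S100a1 stay far from 0 under all of them, while S100a8, S100a9 and S100g spread widely when an array is left out.

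S100a8 and S100a9 encode the subunits of calprotectin, the most abundant cytosolic protein of neutrophils, also made by monocytes. Both were dim. S100a8 gave 2.88 and 2.25 on the MCD diet arrays, against 1.66 and 1.92 on the normal diet arrays. S100a9 gave 3.07 and 2.43 on the MCD diet arrays, against 2.06 and 2.0 on the normal diet arrays. For both genes MCD diet replicate 1 was the highest array, and the groups did not overlap. The differences of 0.78 ± 0.23 for S100a8 (unadjusted 95% interval 0.23 to 1.33) and 0.72 ± 0.22 for S100a9 (0.19 to 1.25) did not pass (limma adjusted p = 0.0913 for S100a8 and 0.10 for S100a9). With 1 MCD diet array left, which is assumed to vary like the normal diet pair, the gap between the MCD diet arrays no longer enters the error. Without MCD diet replicate 2 both then passed, at 1.09 and 1.03 (adjusted p = 0.0332 and 0.0250). Without MCD diet replicate 1 they were 0.47 and 0.40 (adjusted p = 0.261 and 0.252).

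The gap between the MCD diet arrays, replicate 1 minus replicate 2, was 0.62 for S100a8 and 0.63 for S100a9. Over all genes that gap had an SD of 0.27, and 3.04% and 2.94% of genes had a larger one than S100a8 and S100a9. Of 27 neutrophil markers tested, 15 were higher on MCD diet replicate 1 than on replicate 2 and the other 12 were lower. The widest gaps were those of Ngp, Retnlg and Chil3, with Retnlg and Chil3 chosen after their values were seen. Ngp, a granule protein of immature neutrophils, gave 4.47 and 2.22 on the MCD diet arrays, against 2.0 and 2.12 on the normal diet arrays. Retnlg gave 3.29 and 1.87 on the MCD diet arrays, against 1.46 and 1.93 on the normal diet arrays, and Chil3 gave 3.09 and 1.70 on the MCD diet arrays, against 1.59 and 1.85 on the normal diet arrays. MCD diet replicate 1 was thus high for these genes and MCD diet replicate 2 lay near the normal diet arrays.

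Ltf, another granule gene named after its values were seen, gave 2.89 and 2.32 on the MCD diet arrays, against 2.39 and 2.09 on the normal diet arrays, so that replicate 1 alone stood high. Ly6g, Camp, Mpo and Elane had smaller gaps between the MCD diet arrays. Ly6g, the surface marker that defines mouse neutrophils, gave 1.95 and 2.0 on the MCD diet arrays, against 1.77 and 1.86 on the normal diet arrays. Camp gave 2.35 and 2.24 on the MCD diet arrays, against 2.21 and 2.11 on the normal diet arrays, and Mpo and Elane differed by 0.18 each. Of the 27 markers 3 rose, namely Itgam (2.23 ± 0.29) and Clec4d (1.60 ± 0.20), which macrophages also express, and the granulocyte colony-stimulating factor receptor Csf3r (0.92 ± 0.14), whose call was lost without MCD diet replicate 1 or normal diet replicate 2. The other 24 did not pass, and the median of the list was 0.17. Of all genes tested 6.37% rose and 9.98% were called in either direction, so 3 of 27 is near the share called over all genes. The summed linear signal of the 27 markers was 499 to 502 on the MCD diet arrays, against 314 to 356 on the normal diet arrays. These sums follow Lrg1, the brightest of the 27, more than the other markers. Lrg1 was not called and gave 8.11 and 8.39 on the MCD diet arrays, against 7.50 and 7.80 on the normal diet arrays. The part of neutrophils in the S100a8 and S100a9 values was not tested.

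**Figure D3:**
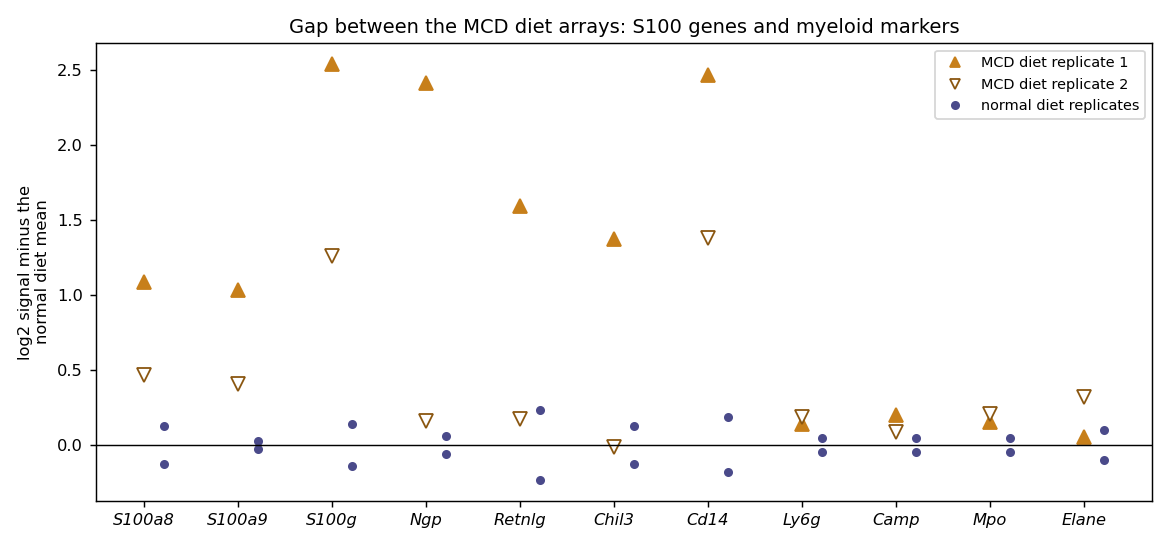
The vertical axis is the log2 signal minus the normal diet mean of the gene, for MCD diet replicate 1 (filled triangles), MCD diet replicate 2 (open triangles) and the normal diet arrays (dots). S100a8, S100a9, S100g, Ngp, Retnlg, Chil3 and Cd14 were higher on MCD diet replicate 1 than on replicate 2. For Ly6g, Camp and Mpo the arrays lay close together, and for Elane MCD diet replicate 2 (2.27) was higher than replicate 1 (2.0).

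S100g, or calbindin-D9k, is the vitamin D-responsive calcium buffer of the intestinal and renal epithelium and the only one of the 10 genes on the X chromosome. Its log2 signal was 5.12 and 3.84 in MCD diet livers, against 2.44 and 2.72 in normal diet livers. Both MCD diet arrays were above both normal diet arrays, but they differed by 1.28 from each other, a gap exceeded by 0.248% of genes. The difference of 1.90 ± 0.39, or 3.73-fold (unadjusted 95% interval 0.94 to 2.86 on the log2 scale), was the largest of the 10 and passed (limma adjusted p = 0.0358). It was 1.26 without MCD diet replicate 1 and 2.54 without MCD diet replicate 2, past the threshold in both cases, where the normal diet pair alone supplied the gene's spread and the standard error was 0.19, against 0.39 with all arrays. The call was lost without normal diet replicate 1 (adjusted p = 0.123), without normal diet replicate 2 (0.0990) and with all rows tested (0.0550). The window of S100g is shown for its TATA box, in capitals, which begins at the annotated first base (chrX:162964550-162964849, GRCm38.p6, minus strand).

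S100g: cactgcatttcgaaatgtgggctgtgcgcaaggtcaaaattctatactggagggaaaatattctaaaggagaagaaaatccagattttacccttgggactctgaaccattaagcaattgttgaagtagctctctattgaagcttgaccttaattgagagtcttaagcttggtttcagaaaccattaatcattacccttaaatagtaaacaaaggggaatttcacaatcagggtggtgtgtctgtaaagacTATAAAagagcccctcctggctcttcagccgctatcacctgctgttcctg

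The TATA letters occur in 13.6% of all windows and in those of S100a4, S100a8, S100a9 and S100g. They begin 31 bases before the start of S100a4 and 30 bases before that of S100a8. In S100a9, as in S100g, they begin at the annotated first base. Of these 4 genes S100g passed the test.

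Genes of vitamin D metabolism and calcium transport did not move in 1 direction beside S100g. Of 16 tested, 2 rose and 2 fell, beside 6.37% and 3.62% of all genes tested, with a median of -0.06. Cyp27a1 and Cyp2r1, hydroxylases that act on vitamin D, fell by 1.46 ± 0.13 and 1.22 ± 0.15. The sodium-calcium exchanger Slc8a1 rose by 0.97 ± 0.22 and the calcium pump Atp2b2 by 0.73 ± 0.16, and both calls were lost with all rows tested, under median centring and on leaving out any of 3 single arrays (MCD diet replicate 2 or either normal diet array for Slc8a1, either MCD diet array or normal diet replicate 1 for Atp2b2). The vitamin D receptor gene Vdr was dim and differed by -0.08 ± 0.13.

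S100a4, known as fibroblast-specific protein and also expressed by macrophages and lymphocytes, was close to the dimmest signals. It gave 1.85 and 1.87 on the MCD diet arrays, against 2.25 and 2.05 on the normal diet arrays. The MCD diet arrays lay below the normal diet arrays, and the difference of -0.29 ± 0.13 did not pass (limma adjusted p = 0.240). S100a16, a widely expressed member, gave 3.40 and 3.55 on the MCD diet arrays, against 3.47 and 3.58 on the normal diet arrays. The groups overlapped, and the difference was -0.05 ± 0.13 (unadjusted 95% interval -0.36 to 0.26; limma adjusted p = 0.869).

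Of the annexins that S100 proteins bind, Anxa1 and Anxa2 had larger differences than any of the 10 S100 genes. Anxa1, the partner of S100a11, gave 6.81 and 6.46 in MCD diet livers, against 3.30 and 2.95 in normal diet livers, a rise of 3.51 ± 0.18 (11.4-fold; limma adjusted p = 0.000482). Anxa2, the partner of S100a10, gave 6.28 and 5.72 in MCD diet livers, against 2.88 and 3.25 in normal diet livers, a rise of 2.94 ± 0.22 (7.66-fold; limma adjusted p = 0.00154). The MCD diet arrays of both genes were far above the normal diet arrays. Anxa5 rose by 1.37 ± 0.14, Anxa6 differed by -0.04 ± 0.12, and Ahnak, a scaffold bound by the S100a10 and annexin A2 complex, rose by 0.88 ± 0.19. The call of Ahnak was lost under quantile normalization, with all rows tested and without either MCD diet array or normal diet replicate 2. Cacybp, the partner of S100a6, differed by 0.04 ± 0.14.

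Of 27 intracellular S100 partners tested, 6 rose and 2 fell, against 6.37% and 3.62% of all genes tested, and the median was 0.15. The genes that fell were Fgf1, the growth factor whose release S100a13 assists, by 1.89 ± 0.24, and the glycogen phosphorylase Pygl by 1.37 ± 0.16. Fgf1 gave 5.35 and 5.72 in MCD diet livers, against 7.12 and 7.74 in normal diet livers, without overlap. Syt1, a vesicle protein of the same release complex, differed by -0.78 ± 0.22 (limma adjusted p = 0.0827) and Il1a by 0.21 ± 0.22.

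In the plasminogen system that S100a10 and annexin A2 serve at the cell surface, 6 of 10 genes tested rose and the other 4 did not pass, with a median of 0.90. The share of all genes tested that rose was 6.37%. Anxa2 is among the 6 and was also counted among the intracellular partners above. The plasminogen activators Plat and Plau rose by 2.40 ± 0.18 and 0.94 ± 0.14. The urokinase receptor Plaur rose by 1.02 ± 0.23, a call lost under both other scalings, with all rows tested and without MCD diet replicate 1 or either normal diet array. The plasminogen receptor Plgrkt rose by 0.85 ± 0.17, and the calls of Plau and Plgrkt were lost without either MCD diet array and without 1 of the normal diet arrays (replicate 1 for Plau, replicate 2 for Plgrkt). Plg itself, made by hepatocytes, differed by -0.32 ± 0.12 (limma adjusted p = 0.170).

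**Figure D4:**
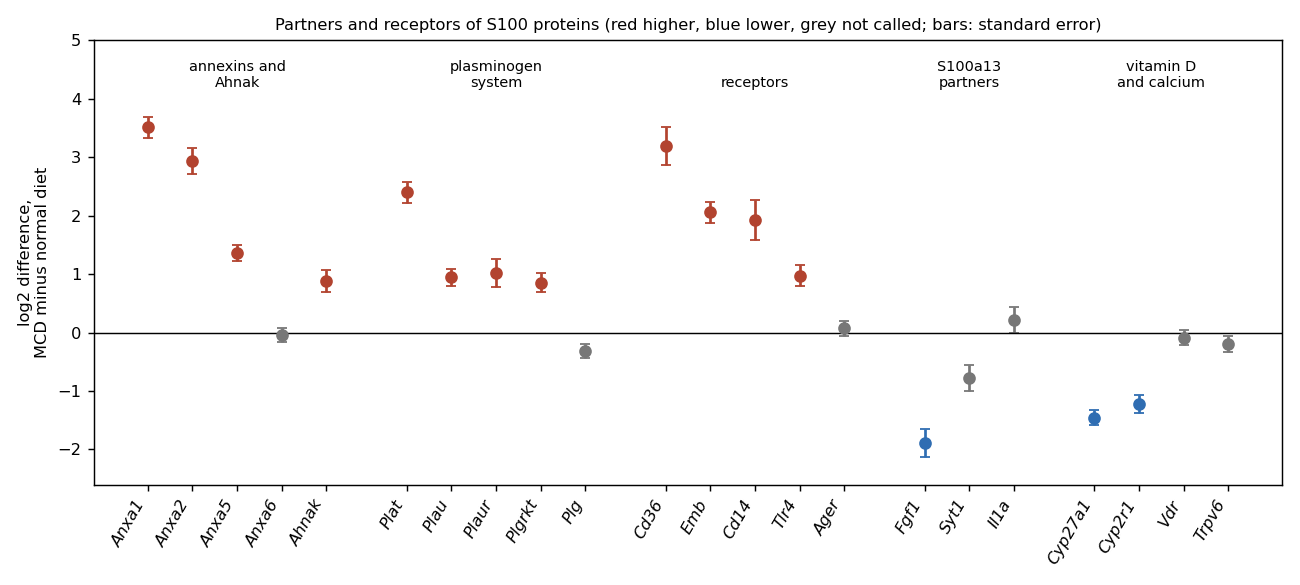
Points are log2 differences, MCD diet minus normal diet, with standard errors, for partners and receptors of S100 proteins grouped by role. Anxa1, Anxa2, Cd36 and Plat stand at 2.40 or more, Fgf1 at -1.89, and Ager and Vdr near 0.

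Receptors reported for released S100 proteins split by gene. Of 18 receptors and signal adaptors tested, 7 rose and the other 11 did not pass, with a median of 0.49, where 6.37% of all genes tested rose. Cd68 had the largest rise of the list, by 3.43 ± 0.24. Both Cd68 and Cd14 are also counted among the monocyte and recruited macrophage markers below. The scavenger receptor Cd36 gave 9.84 and 9.83 in MCD diet livers, against 6.11 and 7.17 in normal diet livers, a rise of 3.19 ± 0.33. Emb, which encodes the calprotectin receptor embigin, rose by 2.06 ± 0.18, and the co-receptor Cd14 by 1.93 ± 0.35, a call lost without either normal diet array. Tlr4, the Toll-like receptor for calprotectin, gave 3.50 and 3.39 in MCD diet livers, against 2.69 and 2.24 in normal diet livers. It rose by 0.98 ± 0.18 (limma adjusted p = 0.0230), a call lost without either MCD diet array or normal diet replicate 2. Ager, which encodes RAGE, gave 3.51 and 3.69 in MCD diet livers and 3.57 and 3.48 in normal diet livers, overlapping, and differed by 0.07 ± 0.13 (limma adjusted p = 0.795), a sign that turned to -0.10 under quantile normalization.

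Markers of several cell types that carry S100 proteins were called between the diets. Of 21 monocyte and recruited macrophage markers tested 20 rose, with a median of 2.23, among them Gpnmb by 7.33 ± 0.20, Mmp12 by 5.59 ± 0.27, Clec7a by 4.34 ± 0.14 and Trem2 by 3.47 ± 0.22. Their summed linear signal was 2635 to 3596 on the MCD diet arrays, against 341 to 346 on the normal diet arrays, and 18 of the 21 were higher on MCD diet replicate 1 than on replicate 2. Of 26 fibroblast and stellate cell markers 11 rose and 1 fell, with a median of 0.71 and summed signals of 4452 to 4463 on MCD diet arrays, against 2644 to 2936 on normal diet arrays. These sums weigh Fn1 and Dcn heavily, of which Fn1 differed by 0.0034 ± 0.12 and Dcn rose by 1.39 ± 0.14. Of 19 biliary and ductular markers 14 rose and 1 fell, with a median of 1.49 and summed signals of 1239 to 1347 on MCD diet arrays, against 789 to 799 on normal diet arrays. The part of these cells in the rises of S100a11, S100a6 and S100g was not tested.

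Of 18 hepatocyte markers 3 fell and the other 15 did not pass, with a median of -0.40. They were Asgr2 (by 0.86 ± 0.15), Hpd (by 0.59 ± 0.12) and Apoa1 (by 0.50 ± 0.12), with summed signals of 29787 to 31818 on MCD diet arrays, against 35596 to 36610 on normal diet arrays. Hpd and Apoa1 lost their calls whichever array was left out, and Asgr2 without either MCD diet array or normal diet replicate 1. Of 14 Kupffer cell markers 2 rose and 5 fell (median -0.31), with summed signals of 713 to 756 on MCD diet arrays, against 1045 to 1122 on normal diet arrays. These sums weigh C6 heavily, whose log2 signal was 4.74 and 5.23 on the MCD diet arrays, against 8.67 and 8.94 on the normal diet arrays. They therefore do not show a fall across the list, of which 7 genes were not called. Clec4f, the defining lectin of Kupffer cells, fell by 1.66 ± 0.19. Of 18 endothelial markers 1 rose and 4 fell, with a median of -0.21 and summed signals of 1165 to 1281 on MCD diet arrays, against 1398 to 1548 on normal diet arrays. The part of hepatocytes in the falls of S100a1 and S100a13 was not tested. Of 16 T and NK cell markers 2 rose, Il7r by 3.54 ± 0.30 and Ccl5 by 0.80 ± 0.12, and the median was 0.12, with summed signals of 175 to 204 on MCD diet arrays, against 116 to 121 on normal diet arrays. The call of Ccl5 was lost without MCD diet replicate 1 or either normal diet array. Beside the counts of these lists, 6.37% of all genes tested rose and 3.62% fell.

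Beyond the 10 genes, 15 other S100 and S100-fused genes were tested and limma called 0 of them, with 1 at an unadjusted p under 0.05 and a median of -0.10. That 1 was S100a14, the neighbour of S100a13, with 2.75 and 2.62 in MCD diet livers, against 3.17 and 3.13 in normal diet livers. Its difference of -0.47 ± 0.12 did not pass (limma adjusted p = 0.0682), though it did under quantile normalization. S100z had the next largest difference of the 15, at -0.26 ± 0.14 (limma adjusted p = 0.325). Of the 15 genes 1 lay above the median normal diet signal of all genes, against 5 of the 10 S100 genes described.

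Of these 10, 9 lie on chromosome 3 in a cluster that an interval of 47 other protein-coding genes divides. In RefSeq order the series opens with S100a1 and S100a13, which fell, and S100a14 (-0.47), and goes on through S100a16, S100a3, S100a2, S100a4 and S100a5, whose differences lay between -0.29 and 0.26. S100a6 follows with its rise, then S100a7a (-0.10), S100a8 and S100a9. Past the interval come the S100-fused genes of skin and hair, and S100a11 and S100a10 close the series. Called genes within the cluster thus lay in both directions, with falls at its start and rises at S100a6 and S100a11.

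**Figure D5:**
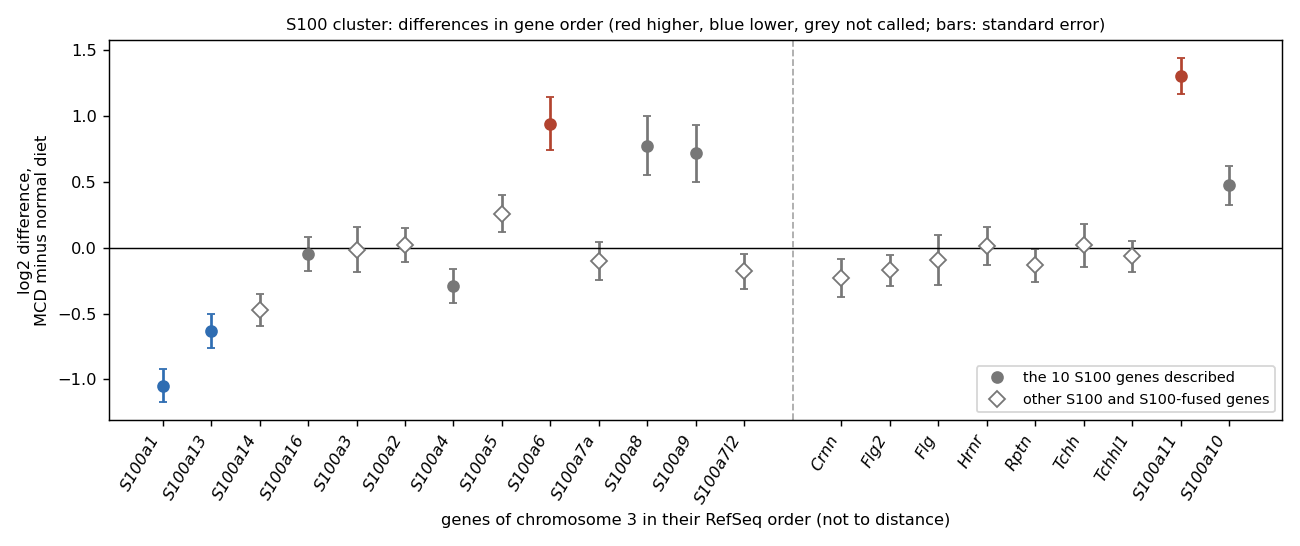
Log2 differences, MCD diet minus normal diet, with standard errors, for the S100 and S100-fused genes of chromosome 3 in their order along the chromosome (circles, the genes described; diamonds, the others; dashed line, the interval of 47 other genes). The left end lies below 0 (S100a1 -1.05, S100a13 -0.63), and S100a11 near the right end stands highest at 1.31.

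Some genes of other EF-hand proteins were called as well. Of 37 tested 7 rose and 1 fell, where 6.37% of all genes tested rose and 3.62% fell, and the median was 0.16. The actin bundler Pls1 rose by 4.08 ± 0.24, nucleobindin Nucb2 by 2.45 ± 0.14, reticulocalbin Rcn2 by 1.15 ± 0.12 and grancalcin Gca by 1.11 ± 0.22, the last a call lost without either MCD diet array or normal diet replicate 2.

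For the genes whose profile over the 4 arrays was most like that of each called S100 gene, likeness was the Euclidean distance between log2 signals centred on their mean. The S100 genes described here, and genes with symbols of predicted genes, clones or pseudogenes, were left out of this search. Nearest to S100a11 were Ugt8a (distance 0.0883), Aoah and Rtn4, and nearest to S100a1 were Qdpr (0.0446), Pcyt2 and Snord90. Anapc4 (0.0608), Zmym4 and Ahnak lay nearest to S100a6, and Zhx2 (0.0336), Cul4a and Tmem219 to S100a13. S100g had no neighbour as close, the nearest being Cd14 (0.155), Trdmt1 and Tlr8, of which Cd14 too was higher on MCD diet replicate 1 (5.46) than on replicate 2 (4.38).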

How the data were processed

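Biotin-labelled cDNA from liver RNA was measured on Mouse Gene 2.1 ST strips in a GeneAtlas system, per the labels and the series' design text. The deposited values, 1 per row and array, were taken to be log2 signals; Transcriptome Analysis Console is the only tool in the submitters' processing notes, and its version and its summarization, background and scaling steps were not given in the sources used here. Their log base was inferred from the range of the values, and all fold changes depend on it. Of 34472 rows, the platform annotation named 1 gene for 23521, several for 1814 and none for 9137. RefSeq (GRCm38.p6) held 23328 of the 23521 and changed 0 symbols. Per gene the row with the highest mean over the 4 arrays was used, which gave 22180 genes.

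MCD diet was compared with normal diet over all genes by limma 3.58.1 under R 4.3.3 (lmFit and eBayes, two-sided, Benjamini-Hochberg over all genes tested, threshold 0.05), with no filter, pseudocount or block. The fit was tested on simulated data. The number of arrays limits the precision. Alternatives were 2 scalings (quantile, median centring), 2 filters (dimmest 25% or dimmest 50% dropped), an intensity trend in the moderation, averaging a gene's rows, testing all rows, a block for replicate number, and dropping 1 array at a time.

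Named were the 10 S100 genes, up to 4 called genes of each of 14 lists with the largest differences (the 2 largest as values where none was called), Anxa2, Anxa1, Ager, Tlr4, Cd36, Ahnak, Ly6g, Camp, Ngp, Trem2 and Alb, and the 3 nearest profiles of each called S100 gene. S100a11-ps, S100a2, S100a3, S100a5, S100a7a, Anxa5, Anxa6, Cacybp, Syt1, Il1a, Plau, Plgrkt, Plg, Retnlg, Chil3, Ltf, Lrg1, Mpo, Elane, Fn1, Dcn, Slc4a4, Onecut1 and Vdr were named after their values were seen. The S100 genes, the lists and the tests were chosen with earlier results of these data known, and the motifs after the windows were read.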

Additional observations from a re-analysis of the deposited data

How the results depend on the processing

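Under the 12 alternatives S100a11 and S100a1 kept direction and call, and S100a10, S100a4 and S100a16 were not called under any that kept them. Dropping the dimmest 50% of genes left out S100a4, S100a6, S100a8 and S100a9, and dropping the dimmest 25% left out S100a4. All 2214 calls numbered 1050 to 1493 with 1 array left out. With 1 array left out, 1 to 4 S100 genes rose and 1 fell. When all rows were tested 1 S100 gene rose, and with an intensity trend 1 fell. The replicate differences correlated by 0.054 between the diets across genes (replicate 1 minus replicate 2 in each diet). The labels do not say whether a replicate number marks a shared litter, batch or day. With the replicate block 1950 genes were called, 2 S100 genes rose and 1 fell, S100a6 and S100a13 losing their calls. Signs that turned were all of uncalled genes. With 1 array left out the differences ranged between -0.13 and 0.028 for S100a16, -0.018 and 0.17 for Ager, -0.11 and 0.027 for Anxa6, -0.064 and 0.48 for Il1a, -0.017 and 1.37 for Chil3, and -0.070 and 0.15 for Cacybp. Leaving out normal diet replicate 2 gave 0.0069 for S100a16 and leaving out normal diet replicate 1 gave -0.063 for Cacybp. Quantile normalization gave -0.10 for Ager, 0.069 for Alb, 0.022 for Anxa6 and -0.0015 for Il1a, and median centring gave -0.027 for Cacybp. Of all calls, 63.8% were higher in MCD diet livers, against 55.5% after quantile normalization and 54% after median centring. The causes of these changes were not tested. Of 893 values of 76 other named genes under the alternatives, 798 kept direction and side of the threshold, 76 lost a call, 8 gained one and 11 turned sign. Signal over background was not analysed, which limits the sizes for dim genes, S100a4, S100a6, S100a8 and S100a9 among them.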
